A study of Homo sapiens with 35 samples.

Results

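The cell cycle and DNA replication genes described here are 40 protein-coding genes chosen by name, among the 62696 rows of a gene count table from U-87 MG cells, and all 40 passed the filter on low counts. U-87 MG is a long-established line of human glioblastoma cells. Members were grouped by role into 6 genes of G1 and G1/S control, 1 inhibitor of cyclin-dependent kinases, 10 genes of replication licensing and the replication fork, 2 genes of nucleotide supply, 7 mitotic cyclins and kinases, 8 genes of the kinetochore and spindle checkpoint, and 6 genes of the spindle, chromosomes and mitotic exit. RNA-seq was available for 12 libraries in 4 groups of 3: control cells left untreated, control cells treated with TWEAK, ETS1 knockdown (KD) cells treated with TWEAK and NFKB2 KD cells treated with TWEAK. TWEAK is a TNF-family cytokine whose receptor signals through non-canonical NF-κB, and it was given at 10 ng/ml for 48 h, after a period of starvation in reduced-serum medium that the labels give for every sample. KDs were made with CRISPR-Cas9 delivered by lentivirus, and KD cells without TWEAK are not among the samples used here. Whether the KD cells were 1 clone or a pool, and which guide the RNA-seq and RNA polymerase II (Pol II) libraries carry, is not given in the labels. ChIP-seq peak lists, which mark DNA recovered with an antibody against a protein, were available for 20 libraries in 10 groups of 2. Of these, 8 were against p52, the product of NFKB2, in untreated and TWEAK-treated control cells and in TWEAK-treated ETS1 KD cells with guide 1 or guide 2. A further 4 were against ETS1 in untreated and TWEAK-treated control cells, and 8 were against Pol II in the same 4 conditions as the RNA-seq.

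Passage through the cell cycle is driven by cyclins that bind cyclin-dependent kinases (CDKs). In G1, cyclin D and cyclin E release the E2F factors, which switch on genes for licensing origins, for deoxynucleotide synthesis and for the replication fork. Later, FOXM1 and MYBL2 act on genes of G2 and mitosis, whose promoters often hold CHR and CCAAT elements. The factor p53 restrains the cycle through the CDK inhibitor p21, encoded by CDKN1A. Glioblastoma is known for a high share of dividing cells, and MKI67 and TOP2A are in common use as markers of them. In bulk RNA, fewer dividing cells and less RNA per dividing cell cannot be told apart.

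Total counts per library ranged from 28384201 to 40192606. The targeted genes were checked first. ETS1 stood at 42.0, 41.3 and 45.1 CPM (counts per 1000000 counts of a library after TMM scaling) in untreated control cells, at 71.9, 73.1 and 87.6 CPM with TWEAK, at 28.2, 33.0 and 37.8 CPM in ETS1 KD cells and at 67.0, 48.8 and 65.4 CPM in NFKB2 KD cells, so that residual transcript remained in the ETS1 KD (log2 fold change −1.23 ± 0.15 (SE), adjusted p = 0.00112, edgeR's quasi-likelihood test with Benjamini-Hochberg adjustment over 16879 genes, as throughout). NFKB2 was at 235, 289 and 346 CPM in TWEAK-treated control cells and at 75.7, 92.6 and 104.9 CPM in NFKB2 KD cells (log2 fold change −1.67 ± 0.18, adjusted p = 0.00339). Of 6 markers of a mesenchymal and glial line, 4 passed the filter on low counts, while GFAP and S100B, the defining astrocyte markers, were at most 0.365 and 0.154 CPM. The summed level of those 6 markers was 11740 to 13700 CPM in untreated, 18230 to 19740 CPM in TWEAK-treated, 17990 to 20350 CPM in ETS1 KD and 13960 to 16810 CPM in NFKB2 KD libraries. VIM, vimentin, made up most of that sum, at 9112 CPM on average in untreated and 16010 CPM in TWEAK-treated libraries (log2 fold change 0.81 ± 0.1, adjusted p = 0.000995). CHI3L1 of the same list fell, from 279 to 60.6 CPM (−2.2 ± 0.48, adjusted p = 0.0282), and FN1, fibronectin, was at 1765 and 793 CPM (−1.15 ± 0.44, adjusted p = 0.217). Leukocyte, epithelial and endothelial lists of 4 genes each summed to at most 3.77, 2.12 and 8.47 CPM in any library, with PTPRC at 0.0922 CPM or less. Libraries differed in how their counts moved with the GC content of genes. The slope of a gene's deviation against its GC content, in log2 units per 10 points of GC, was −0.124, −0.0971 and 0.212 in the untreated libraries, −0.144, 0.0276 and 0.0342 in the TWEAK libraries, 0.0754, −0.127 and 0.0103 in the ETS1 KD libraries and −0.102, 0.246 and −0.0124 in the NFKB2 KD libraries. The third untreated and the second NFKB2 KD library thus stood apart from the rest. Levels of some members rich in A and T, named after their values were seen, varied with these slopes, as described below.

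Sequences of promoter DNA are shown for members that carried an ETS1 or p52 peak in both replicates of a group, and for AURKB, which was called in the RNA-seq. The stretch shared by the ETS1 peaks of both untreated libraries at CCND1 (chr11:69641144-69641402) lies mostly in the 5′ UTR of the gene and is not shown. All are hg38, plus strand except AURKB, and written 5′ to 3′ in the direction of the gene. Capitals mark the letters searched on both strands: CTTCCGG and AGGAAG of the ETS type, TTTGAA and TTCGAA of the CHR type, CCAAT of the NF-Y type, and TTCCCGC and TTGGCGC of the E2F type, none of which contains another. The CDC20 stretch (chr1:43358653-43358907, 328 to 74 bp before the start site, over an exon of the divergent transcript CDC20-DT) is the part shared by the ETS1 peaks of both untreated libraries.
CDC20: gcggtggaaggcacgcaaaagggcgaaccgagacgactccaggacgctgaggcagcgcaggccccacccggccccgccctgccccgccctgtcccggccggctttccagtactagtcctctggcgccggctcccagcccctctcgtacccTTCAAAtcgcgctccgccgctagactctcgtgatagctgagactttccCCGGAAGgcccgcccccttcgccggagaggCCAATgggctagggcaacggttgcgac
TYMS, with an ETS1 peak in both untreated libraries, is shown at chr18:657398-657635, 255 to 18 bp before its start, over an exon of the antisense gene TYMSOS.
TYMS: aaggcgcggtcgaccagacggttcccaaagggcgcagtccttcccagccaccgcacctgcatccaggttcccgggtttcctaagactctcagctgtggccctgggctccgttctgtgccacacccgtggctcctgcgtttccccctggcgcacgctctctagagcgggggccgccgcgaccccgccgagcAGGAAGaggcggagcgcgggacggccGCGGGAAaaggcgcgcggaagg
PLK1, with a p52 peak in both TWEAK-treated libraries, is shown at chr16:23678472-23678709, 417 to 180 bp before its MANE Select start, over an exon of another PLK1 transcript.
PLK1: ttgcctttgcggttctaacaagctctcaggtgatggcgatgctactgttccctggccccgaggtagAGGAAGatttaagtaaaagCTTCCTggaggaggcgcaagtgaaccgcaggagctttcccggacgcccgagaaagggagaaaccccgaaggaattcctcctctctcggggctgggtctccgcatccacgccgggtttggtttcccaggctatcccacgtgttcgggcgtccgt
AURKB is shown at chr17:8210576-8210725 on the minus strand, the 150 bp before its start.
AURKB: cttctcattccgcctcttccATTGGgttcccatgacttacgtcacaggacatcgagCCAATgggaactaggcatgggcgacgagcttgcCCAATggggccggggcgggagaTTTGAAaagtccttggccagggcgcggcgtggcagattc
The CDC20 stretch held CCGGAAG, the reverse of an ETS motif, 130 bp before the start, and the TYMS stretch held AGGAAG 65 bp and an E2F motif 39 bp before the start. The PLK1 stretch held AGGAAG on both strands and no match to the NF-κB consensus, and the AURKB stretch held 3 CCAAT boxes and a CHR motif 39 bp before the start. In the 150 bp before their starts, UBE2C likewise held 2 CCAAT boxes and a CHR motif, CDC20 held 2 CCAAT boxes and a CHR motif, RRM2 held 3 CCAAT boxes and CDC45 held 4, while none of the searched motifs lay in that window of CDKN1A.

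Across all members, promoters of the RefSeq table (GRCh38.p14, 250 bp before to 50 bp after a start) could be matched for 31 of 40 genes. The promoter nearest to the MANE Select start was used for each gene, at any distance, so its start can differ from that start. A CCAAT box was present in 23 of these 31 promoters (74.2%), against 34.6% of all 35116 promoters in the table. A CHR motif was present in 13 (41.9%), against 16.4% of all, and an E2F motif in 9 (29%), against 9.23% of all. AURKB is not among the 13, although a CHR motif lies 39 bp before its MANE Select start. CTTCCGG lay in 5 member promoters (16.1%; 10.3% of all), namely AURKB, CCNB1, CDC20, GINS2 and RRM2, and AGGAAG in 10 (32.3%; 33.6% of all). An NF-κB consensus match lay in 2 (6.45%; 5.91% of all), MCM7 and RRM2. These are matches of letters and are given as a description.

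The first comparison asked how TWEAK moved the 40 members in control cells. 3 members were higher with TWEAK at an adjusted p under 0.05 and none was lower, where 1.55% of all tested genes were called higher and 1.53% lower. The 3 were CDC20, an activator of the anaphase-promoting complex, AURKB, the kinase of the chromosomal passenger complex, and CCND1, cyclin D1. At an unadjusted p under 0.05, 15 members lay higher and 1, CDKN1A, lower (6.9% and 7.77% of all genes), and DESeq2 also called 3 higher and 0 lower (2.43% and 2.78%). The fitted change was above 0 for 37 of 40 members, against 53.3% of all genes, and its median was 0.26 (1.2-fold), against 0.02 over all genes. All 3 TWEAK libraries lay above all 3 untreated libraries for 21 members (10.9% of all genes) and below them for CDKN1A alone (11.5% of all genes).

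**Figure D1:**
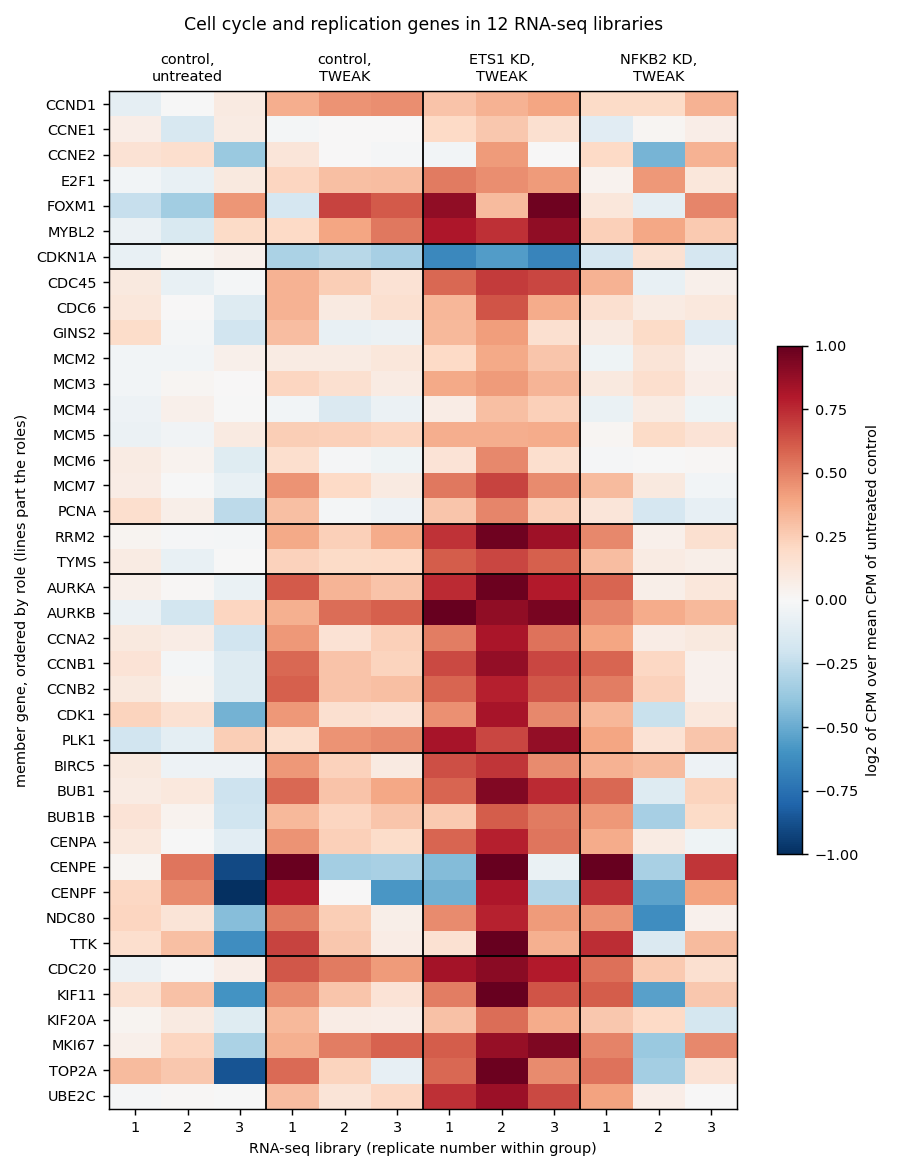
Heat map of the 40 members (rows, ordered by role) in the 12 RNA-seq libraries (columns, 3 per group), coloured by the log2 ratio of CPM to the mean CPM of the untreated group, with the colour scale cut at −1 and 1. The ETS1 KD columns are the reddest across most rows, CDKN1A runs the other way, and CENPE, CENPF, TOP2A and KIF11 differ between libraries of 1 group.

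CDC20 was at 136.5, 141 and 149.5 CPM in untreated and at 218.5, 204 and 192 CPM in TWEAK-treated control cells. It rose 1.44-fold (log2 fold change 0.52 ± 0.11, adjusted p = 0.0256), and the groups did not overlap. AURKB was at 42.5, 39.0 and 51.4 CPM without and at 56.75, 65.4 and 67.2 CPM with TWEAK. It rose 1.42-fold (0.51 ± 0.12, adjusted p = 0.041), with the highest untreated library, replicate 3, still below the lowest treated one. CCND1, the most abundant member per length in untreated cells (207 CPM per kb of transcript), was at 823, 876 and 934 CPM without and at 1127, 1200 and 1208 CPM with TWEAK. It rose 1.34-fold (0.42 ± 0.093, adjusted p = 0.0277), again without overlap. These calls depended on which libraries were used. With the first or second untreated library, or TWEAK replicate 2 or 3, left out, 0 of the 3 were called (CDC20 at adjusted p = 0.11, 0.117, 0.0899 and 0.0604). Of all genes 0.636%, 0.636%, 0.81% and 0.637% were called higher in those fits, against 1.55% with every library. Without the third untreated library 3 members were called higher (1.37% of all genes). Without the first TWEAK library 2 were (1.3%), with CDC20 at 0.0846. Without any filter on low counts 0 members were called (CDC20 at adjusted p = 0.0579), with only the 2 groups in the fit 1, and at the unadjusted p and 1.5-fold threshold of the study 0 (0.998%, 1.32% and 3.3% of all genes higher).

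By role, the 7 mitotic cyclins and kinases had a median log2 change with TWEAK of 0.37 (0.25 to 0.51), and the 8 kinetochore and checkpoint genes one of 0.28 (0.18 to 0.42). The 10 licensing and fork genes lay lower, with a median of 0.12 (−0.07 for MCM4 to 0.25), and none of the 10 was called. MCM7 of the replicative helicase was at 0.25 ± 0.12 and PCNA, the sliding clamp, at 0.08 ± 0.14. In G1/S control, MYBL2 was at 0.38 ± 0.12 (adjusted p = 0.135) and FOXM1 at 0.42 ± 0.26 (adjusted p = 0.536), while CCNE1 and CCNE2, the E cyclins, were at 0.00 ± 0.11 and 0.04 ± 0.21. Outside the members, 7 of 111 tested other cell cycle genes and 2 of 18 p53 targets were called higher with TWEAK, and none lower. The largest of these changes were in CDK6, the partner kinase of D cyclins (1.52 ± 0.3, adjusted p = 0.0158), PLK2, a p53 target (1.29 ± 0.17, adjusted p = 0.0014), and ESPL1, separase (0.9 ± 0.19, adjusted p = 0.0231). The median change of the 111 genes was 0.26, the same as that of the members to 2 decimals.

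In ETS1 KD cells, compared with control cells under TWEAK, 1 member was called higher and none lower (0.255% and 1.13% of all genes). It was UBE2C, the ubiquitin-conjugating enzyme of the anaphase-promoting complex, at 159.8, 141 and 149 CPM in control and at 214, 234 and 204 CPM in ETS1 KD libraries. UBE2C rose 1.45-fold (0.53 ± 0.12, adjusted p = 0.0402), with no overlap between the groups. With any 1 of the 6 libraries left out it was no longer called (adjusted p between 0.0762 and 0.194), while its log2 change stayed between 0.47 and 0.58. In those fits 0.0636% to 0.145% of all genes were called higher, against 0.255% with every library. RRM2 and TYMS, which supply deoxynucleotides, lay just outside the threshold. RRM2 was at 354, 322 and 352 CPM in control and at 451, 534 and 491 CPM in ETS1 KD libraries (log2 fold change 0.52 ± 0.12, adjusted p = 0.0506). TYMS was at 177, 173 and 173 CPM in control and at 229.7, 239.5 and 228 CPM in ETS1 KD libraries (0.41 ± 0.096, adjusted p = 0.0565). Both groups of libraries were separate for these 2 genes too. Reads of TYMS and of its antisense gene TYMSOS cannot be told apart unless the counting used strand, which is not given in the sources used here.

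The fitted change in the ETS1 KD was above 0 for 37 of 40 members, against 50.9% of all genes, with a median of 0.29 (1.23-fold) against 0.01. At an unadjusted p under 0.05, 16 members lay higher and CDKN1A lower (4.92% and 7.06% of all genes). All 3 ETS1 KD libraries lay above all 3 TWEAK-treated control libraries for 24 members (9.57% of all genes) and below them for 1, CDKN1A (10.8%). The nucleotide supply pair had the highest median change of the roles (0.47), followed by the spindle and mitotic exit genes (0.38) and the mitotic cyclins and kinases (0.37). Here all 10 licensing and fork genes lay above 0, from 0.13 for MCM5 to 0.4 for CDC45, a helicase subunit. CCND1 was at −0.08 ± 0.092 (adjusted p = 0.853), with 1067, 1118 and 1151 CPM in the ETS1 KD. With a correction of each library for GC content and transcript length, 9 members were called higher, and with DESeq2 5 (1.26% and 0.735% of all genes). Among the other genes, ORC6 of the origin recognition complex rose (0.5 ± 0.096, adjusted p = 0.02) and was the only one of 111 called. Of 18 p53 targets, SESN2, a stress-induced sestrin, fell (−1.37 ± 0.19, adjusted p = 0.00301), from 110, 131 and 137 CPM to 48.9, 49.0 and 48.8 CPM.

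**Figure D2:**
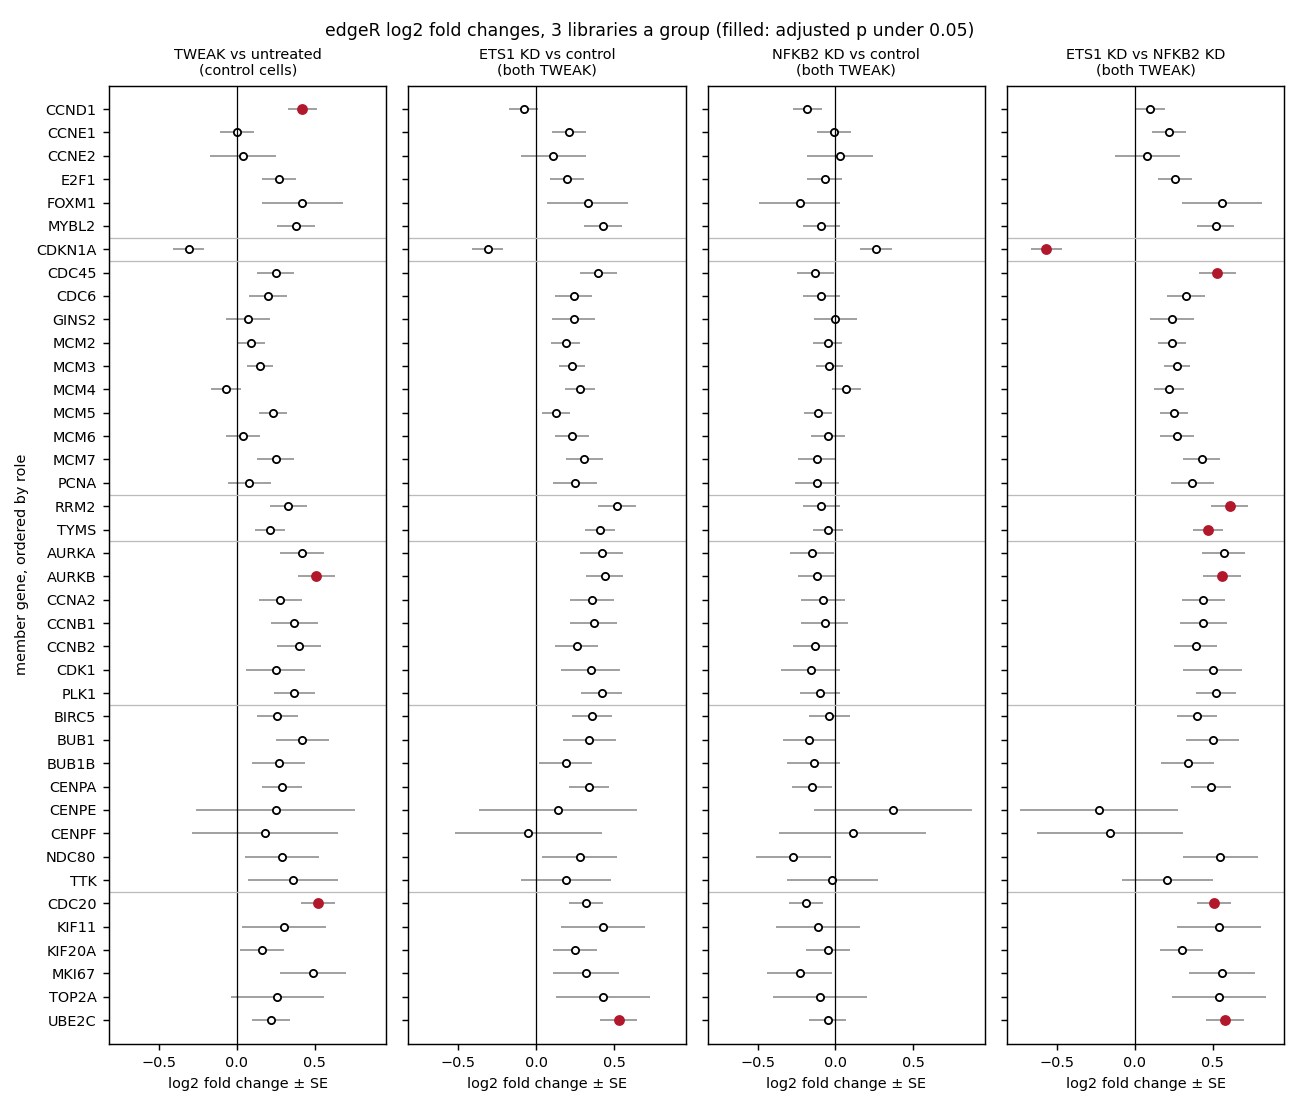
Log2 fold changes of the 40 members with their SE (lines) in 4 contrasts from 1 edgeR fit with 3 libraries a group; filled points have an adjusted p under 0.05. In the panels for TWEAK, for the ETS1 KD and for ETS1 KD against NFKB2 KD 37 of 40 points lie right of 0 each, and in the NFKB2 KD panel 5 do.

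In NFKB2 KD cells under TWEAK no member was called by edgeR in either direction, nor by DESeq2 (0.00592% of all genes were called higher and 0.0237% lower by edgeR). At an unadjusted p under 0.05, 1 member, CDKN1A, lay higher and 0 lower (2.04% and 1.87% of all genes), a share of the members near that of all genes. The fitted change was above 0 for 5 of 40 members, against 44.7% of all genes, and its median was −0.09 (0.941-fold) against −0.02. The changes ran from −0.27 for NDC80, a kinetochore subunit, to 0.37 for CENPE, with SEs between 0.085 and 0.51, the largest of which exceeds the median change in the ETS1 KD. CCND1 was at 999.6, 1004 and 1114 CPM, below all 3 TWEAK-treated control libraries (log2 fold change −0.18 ± 0.092, adjusted p = 1). MCM5 was the only other member with all 3 NFKB2 KD libraries below the control libraries (3.82% of all genes), and CDKN1A the only one with all 3 above (3.05%). Without the library farthest in GC trend in each group, an alternative chosen after the data were seen, the median of the members was 0.02 and CENPE was called higher (0.0647% of all genes). The contrasts for TWEAK and for both KDs share the 3 TWEAK-treated control libraries, so their values stand side by side and are not independent.

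The KDs were compared with each other directly, both under TWEAK, which uses no shared control. 6 members were called higher and 1 lower in ETS1 KD than in NFKB2 KD cells (0.533% and 1.4% of all genes). The fitted difference was above 0 for 37 of 40 members, against 53.4% of all genes, with a median of 0.41 (1.33-fold) against 0.02. All 3 ETS1 KD libraries lay above all 3 NFKB2 KD libraries for 26 members (9.79% of all genes) and below them for CDKN1A (9.22%). At an unadjusted p under 0.05, 28 members lay higher and 1 lower (6.85% and 8.64% of all genes).

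RRM2, the regulatory subunit of ribonucleotide reductase, was at 451, 534 and 491 CPM in ETS1 KD and at 380.4, 282 and 305 CPM in NFKB2 KD libraries (1.53-fold, log2 difference 0.61 ± 0.12, adjusted p = 0.0207). UBE2C was at 214, 234 and 204 CPM against 170.5, 135 and 129.8 CPM (1.5-fold, 0.58 ± 0.12, adjusted p = 0.0235). TYMS, thymidylate synthase, was at 229.7, 239.5 and 228 CPM against 186, 160 and 157 CPM (1.38-fold, 0.47 ± 0.096, adjusted p = 0.0269). In each of these 3 the first NFKB2 KD library was the highest of its group and still below every ETS1 KD library. AURKB was at 90.15, 81.9 and 85.4 CPM against 62.0, 57.45 and 55.4 CPM (1.47-fold, 0.56 ± 0.12, adjusted p = 0.037). CDC20 was at 253, 266 and 246 CPM against 209, 171 and 159 CPM (1.42-fold, 0.51 ± 0.11, adjusted p = 0.039). CDC45 was at 51.4, 56.0 and 54.8 CPM against 43.8, 32.75 and 35.7 CPM (1.44-fold, 0.53 ± 0.12, adjusted p = 0.0452). Each of these, too, had groups that did not overlap.

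CDKN1A, which encodes the CDK inhibitor p21, was the 1 member that was lower in ETS1 KD than in NFKB2 KD cells. Its levels were 258, 275 and 281.5 CPM in untreated control cells, 218, 224 and 215 CPM with TWEAK, 174, 184 and 171 CPM in ETS1 KD and 242, 302 and 241.5 CPM in NFKB2 KD cells. The ETS1 KD libraries were the lowest of all 12, and the second NFKB2 KD library, which stood apart in GC trend, was the highest. The difference between KDs was −0.57 ± 0.1 (0.674-fold, adjusted p = 0.015). Against the TWEAK-treated control cells it was at −0.31 ± 0.1 in the ETS1 KD (adjusted p = 0.211) and at 0.26 ± 0.1 in the NFKB2 KD (adjusted p = 1), and with TWEAK itself at −0.31 ± 0.1 (adjusted p = 0.155). Its log2 difference between KDs stayed between −0.66 and −0.45 with any 1 library of these 2 groups left out.

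**Figure D3:**
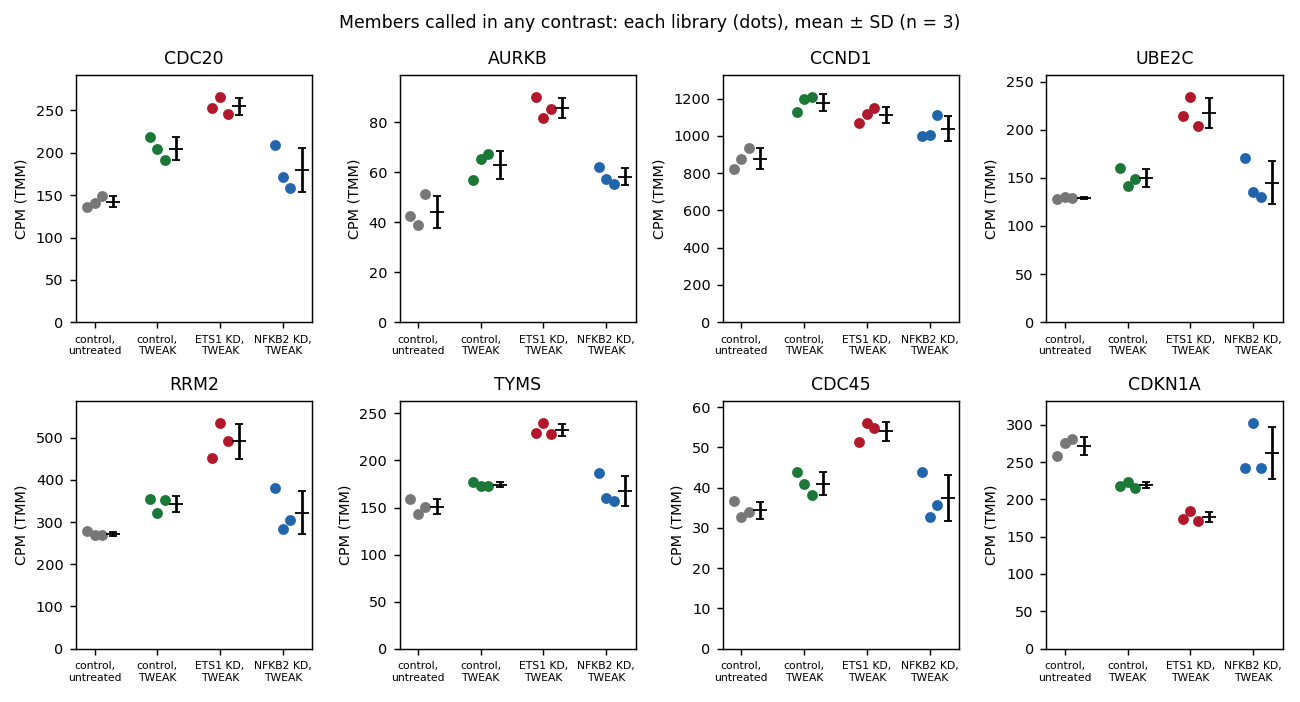
CPM of the 8 members called in any contrast, as 1 point per library with the mean and SD of each group beside it (n = 3), on axes from 0. In 7 panels the ETS1 KD and NFKB2 KD points do not overlap, and in the CCND1 panel they do.

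The 7 calls between KDs depended on the libraries used. Without ETS1 KD replicate 2 or 3, 0 members were called in either direction (0.156% and 0.0983% of all genes higher, 0.542% and 0.341% lower). Without ETS1 KD replicate 1 only RRM2 was called (0.202% of all genes higher and 0.682% lower). Without NFKB2 KD replicate 2 or 3 only CDKN1A was (0.406% and 0.116% of all genes higher, 1.14% and 0.672% lower). Without NFKB2 KD replicate 1, 9 members were called higher and 1 lower (0.843% and 2.4% of all genes). With only these 2 groups in the fit no member was called (0.162% and 0.487%), with upper-quartile scaling 2 were higher and 1 lower (0.338% and 1.7%), and with GC and length correction 17 were higher and 1 lower (2.49% and 2.79%). Over these fits, in this order, the share of all genes called higher rose with the members called higher. The fit without NFKB2 KD replicate 2 departed from that order, with 0.406% of all genes and 0 members higher. Among the other genes of the cycle, 7 of 111 were higher and 0 lower in the ETS1 KD than in the NFKB2 KD, led by CDCA3 (0.69 ± 0.12, adjusted p = 0.0111), a mitotic entry factor, NCAPH (0.56 ± 0.12, adjusted p = 0.0363), a condensin subunit, and CDCA5 (0.54 ± 0.11, adjusted p = 0.0235), sororin. Their median difference was 0.38. Of the 18 p53 targets, 0 were higher and 3 lower: SESN2 (−1.1 ± 0.19, adjusted p = 0.0112), BTG2 (−1.01 ± 0.22, adjusted p = 0.039) and BBC3 (−0.77 ± 0.17, adjusted p = 0.0382), which encodes the pro-apoptotic protein PUMA. CDKN1A is itself a p53 target and was kept out of that list.

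Set over the 39 members without CDKN1A, the median log2 ratio of a library to the untreated mean was 0.08, 0.01 and −0.11 in the untreated libraries. It was 0.35, 0.23 and 0.16 with TWEAK, 0.51, 0.71 and 0.48 in the ETS1 KD, and 0.35, 0.08 and 0.11 in the NFKB2 KD, while the median over all tested genes lay between −0.02 and 0.01 in every library. The 3 ETS1 KD libraries were the highest of the 12. The first TWEAK and the first NFKB2 KD library were alike and ranked next, and the second NFKB2 KD library lay no higher than the first untreated one. All 39 members lay above their untreated mean in the second ETS1 KD library, and 11 did in the third untreated library.

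The 6 members with the largest SEs were CENPE, CENPF, TOP2A, TTK, KIF11 and FOXM1, with SEs of 0.51, 0.47, 0.3, 0.29, 0.27 and 0.26 in the TWEAK contrast. The first 5 had 35.1% to 40.8% GC and transcripts of 2966 to 10290 bases. CENPF, a kinetochore-associated protein with a transcript of 10290 bases and 40.8% GC, was at 237, 285 and 93.9 CPM in untreated, 355, 206 and 137 CPM in TWEAK-treated, 147, 359 and 168 CPM in ETS1 KD and 339.9, 142 and 271 CPM in NFKB2 KD libraries. Within each group the library with the lowest slope against GC had the highest CENPF level, except in the untreated group, where the second library was above the first. CENPE, a kinetochore motor with 35.1% GC, ran from 31.5 to 85.1 CPM in untreated and from 43.55 to 131 CPM in ETS1 KD libraries. TOP2A, topoisomerase IIα with 38.9% GC, ran from 158 to 359 CPM in untreated and from 401 to 568 CPM in ETS1 KD libraries. TTK, a kinase of the spindle checkpoint with 36.4% GC, was at 29.7, 32.5 and 17.2 CPM in untreated libraries. FOXM1, with 55.7% GC, ran the other way, at 121, 112 and 193 CPM, so that untreated replicate 3 was the highest of its group and not the lowest. None of these 5 was called in any contrast of the edgeR fit reported throughout, while CENPE was called in the alternative given above. The part of the GC trend in the members' differences was not tested beyond the corrected fits above.

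**Figure D4:**
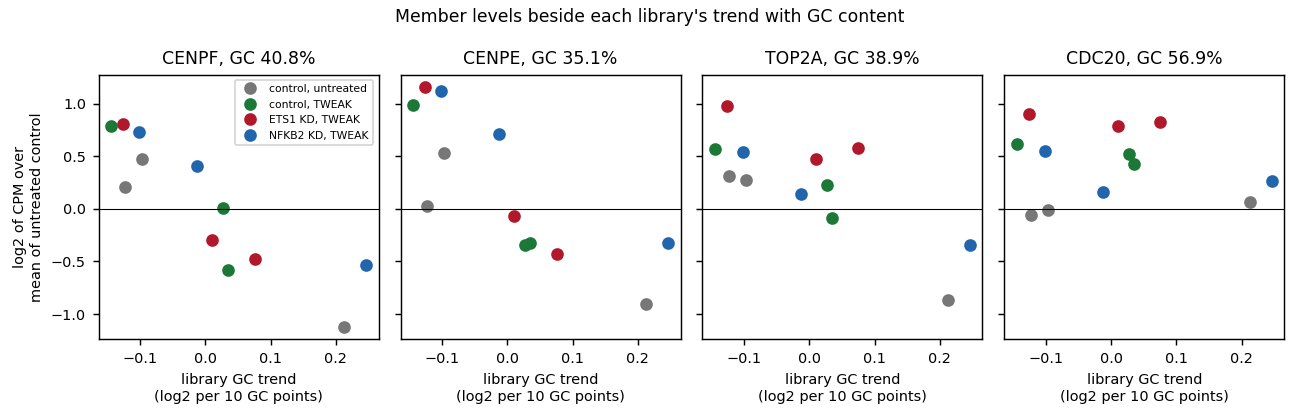
Log2 ratio of CPM to the untreated mean (vertical) against the slope of each library with GC content (horizontal, log2 per 10 points of GC) for 4 members, with 1 point per library and colours for the 4 groups. CENPF, CENPE and TOP2A are lowest in the third untreated library (slope 0.212), and the second NFKB2 KD library (0.246) lies among the 4 lowest of the 12 in each, mixed with libraries of smaller slope. The CDC20 points are lowest in the untreated and highest in the ETS1 KD group, with TWEAK and NFKB2 KD points overlapping between them.

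ETS1 peaks were searched from 1000 bp before to 100 bp after the start of each member. In untreated cells 3 of 40 member promoters, those of CCND1, CDC20 and TYMS, had an ETS1 peak in both replicates, against 4.02% of 12835 tested protein-coding genes. In TWEAK-treated cells 0 of 40 did, against 5.99%, although 4 members had a peak in 1 of the 2 libraries: CDC20 and CDC45 in the first, and AURKA and TYMS in the second. At CDC20 the authors' fold enrichment was 4.44 and 4.38 at the summits of the untreated libraries and 6.01 in the first TWEAK-treated one. The untreated CDC20 peaks lay at 72.2% and 81.8% of the way down their lists, with summits 102 and 291 bp before the start. The TWEAK-treated CDC20 peak lay at 38.6%. At TYMS it was 6.53 and 6.43 in the untreated libraries and 6.14 in the second TWEAK-treated one. The CCND1 peaks, at 4.1 and 3.45, had summits 56 and 27 bp after the start, in the first exon, and lay at 69.9% and 95.2% of the way down their lists of peaks. UBE2C had an ETS1 peak in the first untreated library alone, with a fold enrichment of 4.95 and a summit 77 bp before its start. CTTCCGG lay within 100 bp of the summit for CDC20 in the first library of each group, for CDC45 and for AURKA, and AGGAAG for TYMS in all 3 of its peaks, where 5.56% to 9.19% and 19% to 19.4% of all ETS1 summits in those libraries held these letters. The lists carry no reads, and the depth behind a missing peak is unknown. With 2 libraries against 2, the smallest two-sided p of an exact permutation test is 0.333, so no test was made.

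For p52, PLK1, a mitotic kinase, was the only member with a promoter peak in both replicates of TWEAK-treated control cells (2.7% of genes), with fold enrichments of 5.63 and 6.43. The PLK1 peaks lay at 79.5% and 59.4% of the way down their lists. Among the strongest 452 peaks of each p52 library, an alternative chosen after the data were seen, 0 members had one (0.397% of genes). No member had one in both untreated replicates (0.0156% of genes) or in the ETS1 KD with guide 1 (1.08%) or guide 2 (2.93%). The second TWEAK-treated library, with 11761 peaks against 3579 in the first, also had peaks at CCND1, CCNE1 and MKI67. MKI67 had the only member peak in the ETS1 KD lists, in the second library of guide 1. PLK1 RNA was at 111, 119 and 150.5 CPM in untreated and at 144, 173 and 176 CPM in TWEAK-treated control cells (log2 fold change 0.37 ± 0.13, adjusted p = 0.185), with the third untreated library inside the treated range. It was at 225, 201 and 233 CPM in the ETS1 KD (0.42 ± 0.13, adjusted p = 0.187) and at 167, 140.4 and 153.5 CPM in the NFKB2 KD (−0.1 ± 0.13, adjusted p = 1). An NF-κB consensus match lay within 100 bp of the summit at CCNE1 and at none of the other member peaks of p52, where 63.8% of all summits of that library held one.

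Pol II peaks lay at the promoters of 19 of 40 members in both replicates of untreated cells (45.7% of genes), of 30 with TWEAK (59%), of 30 in the ETS1 KD (49.1%) and of 17 in the NFKB2 KD (44%). The libraries of a group were unlike. In untreated cells 19 members had a peak in the first library and 37 in the second (46.3% and 73.6% of genes), and in the NFKB2 KD 31 did in the first and 19 in the second (63.5% and 47.2%), so that the share of all genes moved with that of the members. With TWEAK 32 and 34 members had one (68.3% and 63.5%), and in the ETS1 KD 33 and 33 (54.7% and 58.3%). No member had a peak in both TWEAK-treated libraries and in neither untreated one (0.865% of genes). For 12 members, among them CDC20, CDC45, TYMS, MYBL2, MKI67 and TOP2A, the peak was in both TWEAK-treated libraries and, of the untreated ones, in the second only (14.7% of genes). MCM5 was the 1 member with a peak in both untreated and neither TWEAK-treated library (0.273%). Between TWEAK-treated control and NFKB2 KD cells, CENPE and MKI67 had a peak in both of the former and neither of the latter (2.84% of genes), and 11 members had one in both of the former and in the first NFKB2 KD library only (13.5%).

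When the strongest 11175 peaks of each library were used, an alternative chosen after the data were seen, 13 member promoters had a peak in both untreated replicates (35.6% of genes), 24 with TWEAK (44.9%), 26 in the ETS1 KD (37.7%) and 16 in the NFKB2 KD (38.7%). In that setting CENPE, without MKI67, had a peak in both TWEAK-treated control libraries and neither NFKB2 KD library (2.02% of genes). CENPE then also had a peak in neither ETS1 KD library, the only member with that pattern (3.47%). With all peaks used, 11 members had one in all 8 libraries, against 32.2% of genes: AURKA, AURKB, CCND1, CDKN1A, KIF11, KIF20A, MCM4, MCM7, PCNA, RRM2 and UBE2C. Among the strongest 11175 peaks 8 did (25% of genes), without KIF11, RRM2 and UBE2C. Of the 8 members called in the RNA-seq, the 11 include 5, so that a peak was listed in every condition at promoters whose RNA differed. CCNE1, with 12.3 to 12.6 CPM in TWEAK-treated control cells, and GINS2 of the replicative helicase had a Pol II peak in no library (20.2% of genes).

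**Figure D5:**
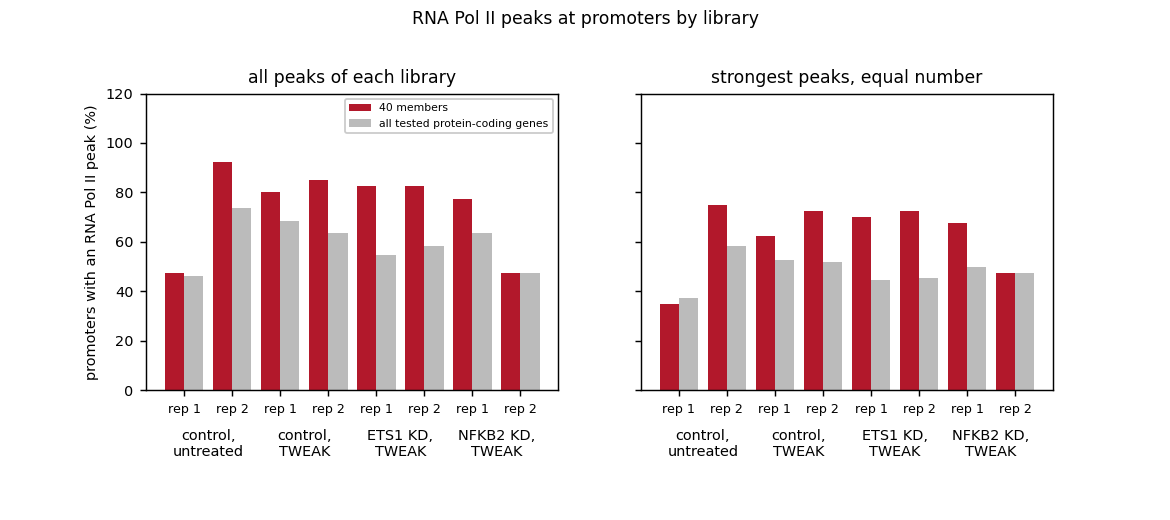
Share of promoters with a Pol II peak in each of 8 libraries (2 per condition) for the 40 members (red) and for 12835 tested genes (grey), with all peaks (left) and with the strongest 11175 peaks of each library (right); the axis starts at 0. In the left panel the members reach 19 of 40 in the first untreated and second NFKB2 KD library and 31 to 37 of 40 in the other 6.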

How the data were processed

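Samples were assigned to groups from their labels, and the 40 members, the gene lists and the tests were chosen with earlier results of these data known. For RNA-seq, the authors used Trimmomatic for adaptors, STAR for alignment (hg38) and featureCounts for assignment to genes, and deposited raw counts, not normalized. Versions, annotation release and strand setting are not given in the sources used here. Genes kept by filterByExpr (16879) were tested with edgeR 4.0.16 in R 4.3.3 (TMM, quasi-likelihood F-test, 4 groups in one model, Benjamini-Hochberg); SEs are from the same fit. The study states 3 biological replicates. No pair of replicates differed as little as sampling noise. DESeq2 1.42.0, which the study used, was an alternative. The test was checked on simulated counts.

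For ChIP-seq, the authors mapped reads with Bowtie2 and called peaks with MACS2 per library, with input subtracted and blacklisted regions removed. The fold enrichment ratio and −log10 p- and q-values are the authors' values. Peaks overlapping by at least 1 bp the window of 1000 bp before to 100 bp after the GENCODE 44 MANE Select start were counted. The 3 input samples were not analysed here. Named genes were those called in any contrast, CDKN1A, CCND1, members with an ETS1 or p52 peak in both replicates, and up to 3 genes per list, contrast and direction; CENPF, CENPE, TOP2A and other members named with a value were chosen after their values were seen. Sequences were read from hg38 with Python 3.11.15, and figures drawn with matplotlib 3.10.9.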

Additional observations from a re-analysis of the deposited data

Results flagged for a closer look

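For 7 members the ETS1 KD and the NFKB2 KD, both under TWEAK, differed in edgeR's direct comparison of the 2 KDs at an adjusted p under 0.05. The log2 differences, ETS1 KD minus NFKB2 KD, were 0.61 for RRM2, 0.58 for UBE2C, 0.56 for AURKB, 0.53 for CDC45, 0.51 for CDC20, 0.47 for TYMS and −0.57 for CDKN1A, each with all 3 libraries of one group on the same side of all 3 of the other. Of all genes 0.533% were called higher and 1.4% lower, and 9.79% and 9.22% lay wholly above and below. With only these 2 groups in the fit, or without ETS1 KD replicate 2 or 3, 0 members were called. Apart from the GC trend of the RNA-seq libraries, groups of 2 or 3 libraries were not searched for outlying samples.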

How the results depend on the processing

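Of the counts of members, 145 values under an alternative stayed within 1.5 times the reported one and 63 did not. In the RNA-seq, the TWEAK contrast (3 higher, 0 lower) gave 0 higher without a filter on low counts or at the study's unadjusted p and 1.5-fold, 1 with the 2 groups alone, 7 higher and 1 lower with the replicate block and GC and length correction together (4.05% and 4.8% of all genes), and 0 to 3 higher and 0 lower with 1 library left out. The ETS1 KD (1 higher, 0 lower) gave 0 with upper-quartile scaling or the study's thresholds, 2 without a filter, 5 with DESeq2, 9 with GC and length correction, 12 with the block added (0.735%, 1.26% and 2.24% of all genes), and 0 with any 1 library left out. ETS1 KD against NFKB2 KD (6 higher, 1 lower) gave 2 higher with upper-quartile scaling, 12 with DESeq2, 17 with GC and length correction, 23 with the block added (1.72%, 2.49% and 4.69% of all genes), 0 higher and 0 lower with the 2 groups alone, 1 higher and 0 lower at the study's thresholds, and 0 to 9 higher and 0 to 1 lower with 1 library left out. The NFKB2 KD gave 0 and 0 in each planned fit. Deviations of same-numbered libraries from their group means correlated between groups at −0.304 to 0.492. Differently numbered libraries were not compared, so whether replicate numbers pair the samples was not tested. With the replicate block alone, 2 members were higher in the ETS1 KD and 10 between KDs (0.284% and 0.758% of all genes). Without the library farthest in GC trend in each group, chosen after the data were seen, 8 were higher and 3 lower with TWEAK (11.2% and 8.36% of all genes). In the same setting 3 were higher in the ETS1 KD (0.77%) and 1 in the NFKB2 KD (0.0647%). Between KDs, 8 were higher and 3 lower in the ETS1 KD (2.19% and 3.57%). That setting turned the NFKB2 KD median of the members to 0.02, CDC45 to 0.01, RRM2 to 0.03 and UBE2C to 0.05; with 1 NFKB2 KD replicate left out, UBE2C ran from −0.15 to 0.05 (0.00 without replicate 2, 0.05 without replicate 3) and TYMS from −0.11 to 0.01 (without replicate 3). None of these was called. The cause of these shifts was not tested.

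The promoter count for p52 with TWEAK (1) became 0 among the strongest peaks in equal numbers (0.397% of genes) and 2 with any annotated start (4.31%). It became 4 with a peak in either replicate (10.6%), and 1 to 4 with 1 replicate left out (2.73% to 10.5%). For p52 in ETS1 KD guide 1 (0) it became 1 with any annotated start (1.76%) and 1 in either replicate (3.27%). With 1 replicate of guide 1 left out it was 0 to 1 (1.09% to 3.26%). For guide 2 (0) it became 1 with any annotated start (4.5%). ETS1 in untreated cells (3) became 1 at −log10 q of at least 5 or with equal numbers of peaks (2.43% and 3.28% of genes). ETS1 with TWEAK (0) became 4 in either replicate (14% of genes) and 2 with replicate 1 or 2 left out (9.12% and 10.8%). Pol II in untreated cells (19) became 12 at −log10 q of at least 5 and 37 in either replicate (33.2% and 74.2% of genes). With 1 untreated replicate left out it was 19 to 37 (46.3% to 73.6%). In the NFKB2 KD (17) the values were 8 and 33 (30.4% and 66.6%) and 19 to 31 (47.2% to 63.5%). Of the called members, all kept the sign of each called change in every alternative. With 3 libraries a group the SE of a member's log2 change in the NFKB2 KD contrast was 0.085 to 0.51, and the peak lists give no depth.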
